A study of Nicotiana tabacum with 12 samples.

Results

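LOC107821378 is a tobacco gene that the authors' deposited tables describe as histidine kinase 3-like, a name given to a receptor for the plant hormone cytokinin. It was 1 of 45034 genes in the deposited tables, and it was chosen by its own values after 4 h and after 48 h of induction, in the comparison with control seedlings. Its levels and changes are therefore given as a description, without a test.

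The study sequenced polyadenylated RNA of shoots (aerial parts) of Nicotiana tabacum seedlings, cultivar Petit Havana SR1. The plants were stably transformed T2 seedlings in which β-estradiol induces AmMIXTA, the snapdragon gene of a MYB transcription factor. The question was which genes take part in the start and the formation of glandular trichomes, hairs that secrete, on cotyledons, which normally bear none. The 4 groups were seedlings induced with β-estradiol for 4 h (7 days old), their controls of the same age, seedlings induced for 48 h (9 days old), and their controls. Each group had 3 libraries, with aerial parts of 15 seedlings per collection. As far as the labels say, the control seedlings came from the same T2 seeds without the inducer. Seedlings with β-estradiol but no transgene were not analysed here, so effects of the inducer and of AmMIXTA cannot be told apart. How many transformed lines were used, and the level of AmMIXTA itself, were not analysed here.

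Cytokinins are adenine-derived hormones that promote cell division and shoot growth. Histidine kinase receptors bind the hormone and pass a phosphate to histidine-containing phosphotransfer proteins, which carry it to response regulators in the nucleus. Type-B response regulators switch on target genes, while type-A response regulators are among those targets and dampen the signal. In Arabidopsis, the receptor AHK3 is known for shoot responses and for delaying leaf ageing, and cytokinin promotes the formation of trichomes on inflorescence organs.

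The deposited value of a gene is a normalised signal in which every entry of a library is a whole multiple of the value of 1 read, so that whole reads could be recovered. A few genes of extreme value were left out. The totals recovered for the remaining genes ranged from 12457701 to 30103266 reads in all libraries except control replicate 1. That replicate had totals of 917871 at 4 h and of 1240033 at 48 h. With the left-out genes included, totals were 22443424 to 44946993 reads elsewhere, and 1609263 at 4 h and 1274469 at 48 h in control replicate 1. In these shallow libraries 1 read was worth 0.697 at 4 h and 0.28 at 48 h, against 0.0152 to 0.0322 elsewhere. Control replicates 2 and 3 at 48 h held identical values in all 42645 genes compared and were counted as 1 sample, which left 2 distinct control libraries at 48 h. All 8 photosynthesis genes that were used as shoot markers, among them CAB21, Lhcb4 and Rca, were present in every library. Where nothing says that libraries came from separate cultures, a p-value measures only the spread between these libraries.

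After 4 h of induction the histidine kinase 3-like gene was lower in induced than in control seedlings, with a fold of 0.749. Its deposited values were 17.3, 18.3 and 17.2 in induced replicates 1, 2 and 3, and 26.5, 22.1 and 22.6 in control replicates 1, 2 and 3. All induced libraries lay below all control libraries. They rested on 723, 855 and 575 reads in the induced libraries, and on 38, 686 and 880 reads in the control libraries. The highest of the 6 values, 26.5, came from the shallow control replicate 1 and had a 95% exact Poisson interval of 18.7 to 36.3. These intervals cover counting error only. The intervals of the deeper controls, 20.5 to 23.8 and 21.1 to 24.1, lay above those of all 3 induced libraries, whose upper bounds were 18.6, 19.5 and 18.7. The interval of the shallow control lay apart from that of induced replicate 1 and overlapped that of replicate 2. Against replicate 3 the facing bounds are equal at the digits printed.

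The mean deposited value at 4 h was 17.6 ± 0.58 in induced seedlings and 23.7 ± 2.39 in control seedlings (SD, n = 3 each). The log2 change, fitted by limma on log2(value + 0.5), was -0.42 (SE 0.11). The median change of the 37238 genes tested was 0.02, and 2.31% of them had a lower log2 change. Induced libraries all lay below control libraries in 4.95% of the genes and all above them in 5.45%. Without the shallow control the change was -0.34. The library numbers in the sample descriptions pair the libraries. Within those pairs the ratio of induced to control was 0.764, 0.826 and 0.651. That each lies below 1 follows from the lack of overlap. In a bulk sample of whole aerial parts, fewer cells that express the gene and less RNA per cell cannot be told apart.

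**Figure D1:**
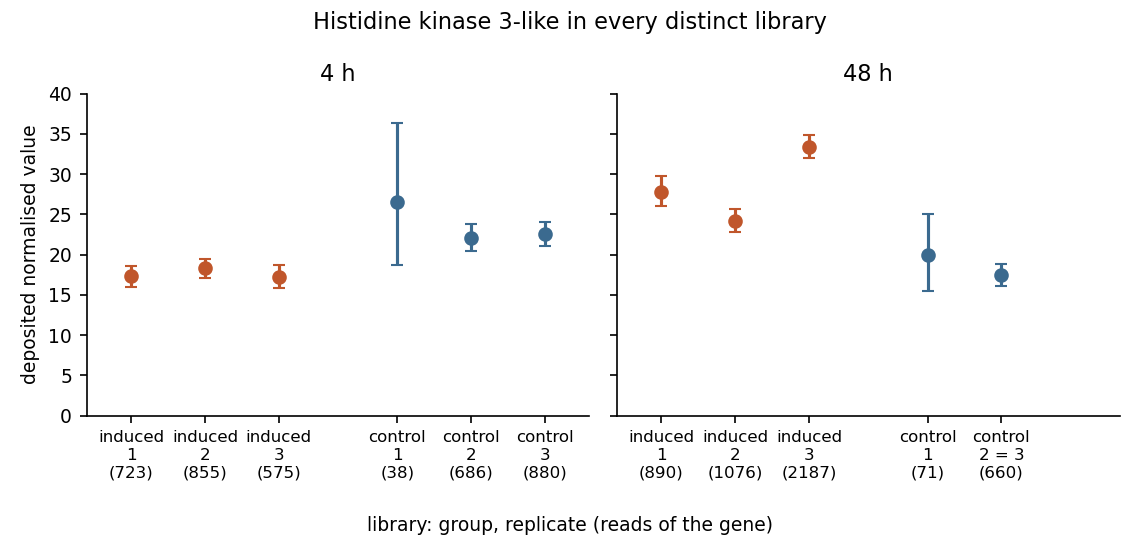
Deposited normalised value of the histidine kinase 3-like gene in each distinct library, at 4 h (left panel) and 48 h (right panel), with the recovered reads of the gene under each library. Points are libraries and bars are 95% exact Poisson intervals of the reads. Induced libraries sit at 17.2 to 18.3 at 4 h, below the controls at 22.1 to 26.5, and at 24.2 to 33.3 at 48 h, above the controls at 17.4 and 19.9. The panels were scaled separately by the authors.

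A set of nicotine genes, chosen with earlier results of these data known, also differed at 4 h. It held 12 genes that are known to be used mainly in roots. Among them are PMT1, which makes the first committed precursor of nicotine, and the tonoplast transporter NtMATE1. Of these 12 genes, 11 were higher in all induced than in all control libraries, against 5.45% of all genes tested at 4 h. Their summed deposited value was 48.55 to 83.15 in induced libraries and 19.98 to 34.84 in control libraries, and none was at 0 in any library. Their part in the 4 h difference of the histidine kinase 3-like gene was not tested. The summed values of the 8 shoot markers overlapped at 12220 to 12680 in induced libraries and 10980 to 12980 in control libraries.

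After 48 h the order was the opposite, and the gene was higher in induced than in control seedlings by about 1.5-fold. Its deposited values were 27.8, 24.2 and 33.3 in induced replicates 1, 2 and 3, against 19.9 in control replicate 1 and 17.4 in the repeated control library. Again no induced library overlapped a control library. The values rested on 890, 1076 and 2187 reads in the induced libraries, and on 71 and 660 reads in the control libraries. The interval of the deeper control, 16.1 to 18.8, lay below those of all 3 induced libraries, which began at 26.0, 22.8 and 32.0. The shallow control had an interval of 15.5 to 25.0, which lay apart from 2 of the 3 and overlapped that of induced replicate 2, at 22.8 to 25.7.

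The mean deposited value at 48 h was 28.5 ± 4.6 in induced seedlings (SD, n = 3) and 18.6 ± 1.72 in control seedlings (SD, n = 2). The induced libraries differed more from each other at 48 h than at 4 h, with an SD of 4.6 at 48 h and 0.58 at 4 h on scales that the authors set separately. The log2 change was 0.59 (SE 0.14), a fold of 1.5, and 0.931% of the 31565 genes tested had a higher one, around a median of 0.02. Without the shallow control it was 0.68, and without the repeated library, 0.50. Within the pairs by library number the ratios of induced to control were 1.6, 1.39 and 1.68, and those of numbers 2 and 3 share the repeated control. The 11 nicotine genes present in the 48 h table showed no such separation. Their summed value was 11.23 to 20.08 in induced libraries and 11.75 to 27.85 in control libraries, with 3 of them at 0 in an induced library, and none was without overlap between the groups.

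At 48 h, induced libraries all lay above control libraries in 12.5% of the genes tested, and all below in 8.92%. The pattern of the histidine kinase 3-like gene, all below at 4 h and all above at 48 h, was shared by 186 of 31383 genes tested at both times (0.593%). The opposite pattern was shown by 219 genes (0.698%).

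The authors' deposited table for 4 h gives the gene a fold of 0.741, and their deposited table for 48 h a fold of 1.56. The shorter of the authors' deposited tables for 48 h, which lists 604 genes at a fold of 1.5 or more and an unadjusted p below 0.05, includes it. That table counts the repeated control library as 2 samples. With that library counted once the ratio of means was 1.53, which met the fold part of the rule. The part on the unadjusted p was no longer met when recomputed from the distinct libraries, by a method that may differ from the authors' own. That check concerns the listing only and is not used as a test of the gene, which was chosen on these values.

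Because the deposited tables had been scaled separately, the recovered reads of all 11 distinct libraries were rescaled together to 1 scale. The unit is CPM, reads of the gene per 1000000 reads of the kept genes in both tables, after TMM scaling between libraries. The left-out genes held up to 69.3% of a library's reads. How levels compared between the times depend on leaving them out was not tested. The gene had 26.0, 27.4 and 25.9 CPM in induced replicates 1, 2 and 3 at 4 h, against 40.6, 33.1 and 34.0 CPM in the controls. At 48 h it had 78.9, 68.7 and 94.7 CPM in the induced replicates, against 56.3 and 49.3 CPM in the controls. The level was highest in induced seedlings at 48 h, followed by control seedlings at 48 h, control seedlings at 4 h and induced seedlings at 4 h. No library of 1 group overlapped one of the next group in this order. How many of all genes separate the 4 groups in this way was not counted.

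On this CPM scale the gene was higher at 48 h than at 4 h in both kinds of seedling. In induced seedlings it averaged 80.8 ± 13.1 CPM at 48 h and 26.5 ± 0.858 CPM at 4 h (SD, n = 3 each), a log2 change of 1.58 (SE 0.12) or 2.99-fold. In control seedlings it averaged 52.8 ± 4.97 CPM at 48 h (SD, n = 2) and 35.9 ± 4.11 CPM at 4 h (SD, n = 3), a log2 change of 0.55 (SE 0.13) or 1.47-fold. Of the 41261 genes in this fit, 0.986% had a higher change in induced seedlings and 8.65% in control seedlings, while the median of all genes was -0.01 in both. The induction effect at 48 h exceeded that at 4 h by 1.03 (SE 0.18) on the log2 scale, or 2.04-fold, and 0.957% of genes had a larger difference. The change over time includes 2 further days of age, and the time of collection and the age cannot be told apart.

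Of the other receptors, RefSeq names 1 gene as CRE1 (LOC107794902), the name of the cytokinin receptor also known as AHK4 in Arabidopsis. Its CPM averaged 39.7 ± 2.03 in induced and 37.0 ± 3.67 in control seedlings at 4 h (SD, n = 3 each). At 48 h it averaged 31.6 ± 4.86 in induced seedlings (SD, n = 3) and 33.3 ± 7.77 in control seedlings (SD, n = 2). Induced and control libraries of CRE1 overlapped at both times. The log2 change of CRE1 upon induction was 0.11 at 4 h (SE 0.11, limma adjusted p = 0.996) and -0.06 at 48 h (SE 0.16, adjusted p = 0.983). Over time, 48 h over 4 h, its log2 change was -0.33 in induced seedlings (SE 0.13, adjusted p = 0.0837), which passed the threshold of 0.05 once libraries were paired by number (adjusted p = 0.0488), and -0.17 in control seedlings (SE 0.14, adjusted p = 0.531).

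**Figure D2:**
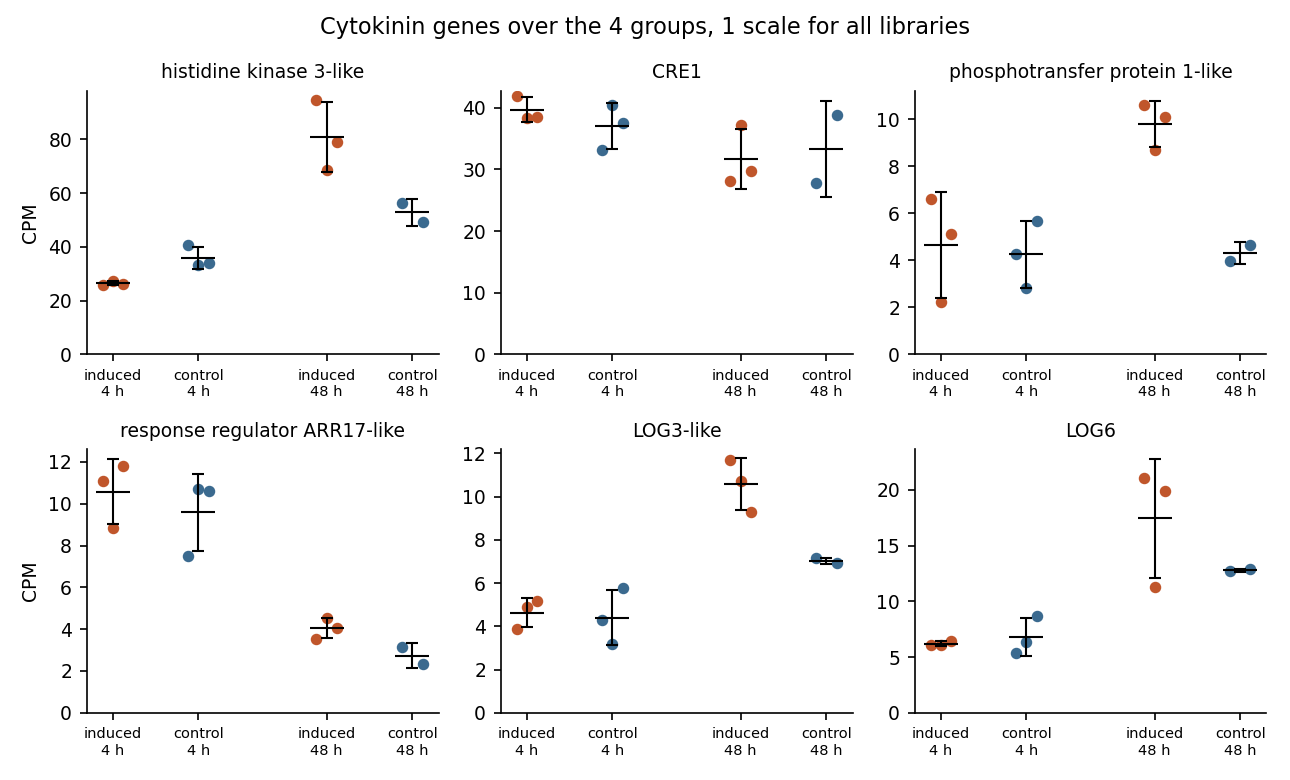
CPM of the histidine kinase 3-like gene and of 5 other cytokinin genes in the 4 groups, each panel with its own axis from 0. Points are libraries, horizontal lines group means and bars SD (n = 3, and n = 2 in control seedlings at 48 h). The histidine kinase 3-like gene is lowest at 26.5 CPM in induced seedlings at 4 h and highest at 80.8 CPM in induced seedlings at 48 h, while induced and control libraries of CRE1 overlap within each time.

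Of the 45034 genes, only 938 had a RefSeq name and 581 a deposited description, so some cytokinin genes may have gone unrecognised. Besides the histidine kinase 3-like gene, 7 genes of cytokinin signalling or metabolism carried a name. CRE1 and LOG6 are named by RefSeq. The others are named only because the authors' deposited tables of higher genes list them. These are 4 from the 48 h table and the zeatin O-glucosyltransferase-like gene from the 4 h table. Their direction in those comparisons is therefore not independent evidence. The same holds for their changes over time and for the difference between the times, which use the same libraries. At 4 h, limma called none of the 5 that passed the filter on low values at an adjusted p under 0.05, and 0 had an unadjusted p under 0.05, while 0.352% of all genes tested were called. edgeR and DESeq2 also called 0 of them. Their median log2 change was 0.09, within a range of -0.09 to 0.15, and the median of all genes was 0.02. At 48 h, 0 of 5 were called against 0.0127% of all genes, with 2 at an unadjusted p under 0.05 and 0 called by edgeR or DESeq2. Paired by library number, 1 of the 5 was higher in induced seedlings at 48 h, against 0.865% of all genes called higher. The median of the 5 was 0.40, within a range of -0.06 to 0.97.

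The histidine-containing phosphotransfer protein 1-like gene (LOC107813434), named for the carriers between receptor and response regulator, had the largest change of these genes at 48 h. Its deposited values were 3.57, 3.06 and 3.72 in induced replicates 1, 2 and 3, against 1.4 and 1.64 in the controls, without overlap. The value of 1.4 in control replicate 1 rested on 5 reads. The log2 change was 0.97 (SE 0.18, limma adjusted p = 0.0617), and 0.94 with an adjusted p of 0.00107 when paired by library number. In that paired fit induced replicate 1 had no control partner, because the repeated control counted once, so 0.94 rested on induced replicates 2 and 3. Over 16 alternative settings the adjusted p of the change at 48 h ranged from 3.99e-05 to 0.918. At 4 h the gene's log2 change was 0.06 (SE 0.36, adjusted p = 0.998), and the test of the difference between the times gave 1.05 (adjusted p = 0.762). In induced seedlings the phosphotransfer gene rose over time by 1.10 (SE 0.31, adjusted p = 0.0224), with 9.79 ± 0.98 CPM at 48 h and 4.65 ± 2.24 CPM at 4 h (SD, n = 3 each). That call was lost without induced replicate 1 or 3 of 48 h (1.11 and 1.05), or without both shallow controls (1.10).

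Among the genes of the response, the two-component response regulator ARR17-like (LOC107806182), named after a type-A regulator of Arabidopsis, fell over time. In induced seedlings it averaged 4.05 ± 0.493 CPM at 48 h and 10.6 ± 1.55 CPM at 4 h (SD, n = 3 each), a log2 change of -1.28 (SE 0.18, limma adjusted p = 1.46e-05). In control seedlings it averaged 2.74 ± 0.606 CPM at 48 h (SD, n = 2) and 9.61 ± 1.84 CPM at 4 h (SD, n = 3), a log2 change of -1.63 (SE 0.20, adjusted p = 3.27e-06). Its direction over time was thus opposite to that of the histidine kinase 3-like gene in both kinds of seedling. Its change upon induction was 0.15 at 4 h (adjusted p = 0.996) and 0.40 at 48 h (adjusted p = 0.91). The CRF4-like gene (LOC107770678), named after the cytokinin response factors of the AP2/ERF family, was too low for the fits at 4 h and at 48 h and was not called over time, with log2 changes of 0.55 in induced and 0.07 in control seedlings.

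LOG enzymes release the active cytokinin base from its nucleotide form, and both genes named after them rose over time, the direction in which the levels of the histidine kinase 3-like gene differed. LOG3-like (LOC107769258) averaged 10.6 ± 1.19 CPM at 48 h and 4.63 ± 0.673 CPM at 4 h in induced seedlings, a log2 change of 1.11 (SE 0.19, limma adjusted p = 0.000114). LOG6 (LOC107819010) averaged 17.4 ± 5.33 CPM at 48 h and 6.21 ± 0.237 CPM at 4 h in induced seedlings (SD, n = 3 each), a log2 change of 1.37 (SE 0.20, adjusted p = 3.93e-05). In control seedlings the log2 changes were 0.65 for LOG3-like (SE 0.21, adjusted p = 0.0413) and 0.89 for LOG6 (SE 0.22, adjusted p = 0.00985). Both control calls were lost under several alternatives. edgeR lost both (0.66 for LOG3-like and 0.82 for LOG6), as did the fit without both shallow controls (0.63 and 0.75). That of LOG3-like was lost without control replicate 1 (0.65) or 2 (0.49) of 4 h, and without control replicate 1 (0.64) or 2 (0.67) of 48 h. That of LOG6 was lost without control replicate 1 (0.90) or 2 (0.88) of 48 h. Neither gene was called upon induction, with log2 changes at 48 h of 0.50 for LOG3-like (adjusted p = 0.565) and 0.36 for LOG6 (adjusted p = 0.924).

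The zeatin O-glucosyltransferase-like gene (LOC107824556), named for the enzyme that stores zeatin as a glucoside, was low. At 4 h its mean deposited value was 1.07 ± 0.28 in induced and 0.558 ± 0.123 in control seedlings (SD, n = 3 each), without overlap. The highest control value, 0.697 in control replicate 1, rested on 1 read, and the gene was listed for being higher in this comparison. Of the genes tested at 4 h, 5.45% lay all above the controls in induced libraries. Too few libraries reached a value of 1 for the zeatin O-glucosyltransferase-like gene to enter the fit. Over time its log2 change was -0.59 in induced and 0.43 in control seedlings, neither of which was called.

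Over the whole list, 3 of 7 genes rose and 1 fell over time in induced seedlings, where limma called 17.4% of all genes, 8.47% higher and 8.89% lower. Paired by library number across both times, 3 rose and 2 fell, against 9.11% of all genes higher and 9.51% lower. In control seedlings 2 rose and 1 fell, where 12.2% of all genes were called, 5.68% higher and 6.5% lower. None of the 7 differed between the induction effects at 48 h and 4 h at an adjusted p under 0.05, where 0.16% of all genes were called, and 2 had an unadjusted p under 0.05. The median difference was 0.46 for the 7 genes and 0.0 for all genes, beside 1.03 for the histidine kinase 3-like gene. Most of the 7 were listed because the authors' table has them higher in induced seedlings at 48 h. That choice favours a positive difference and a rise in induced seedlings in advance. These counts and this median are therefore a description of the listed genes only.

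**Figure D3:**
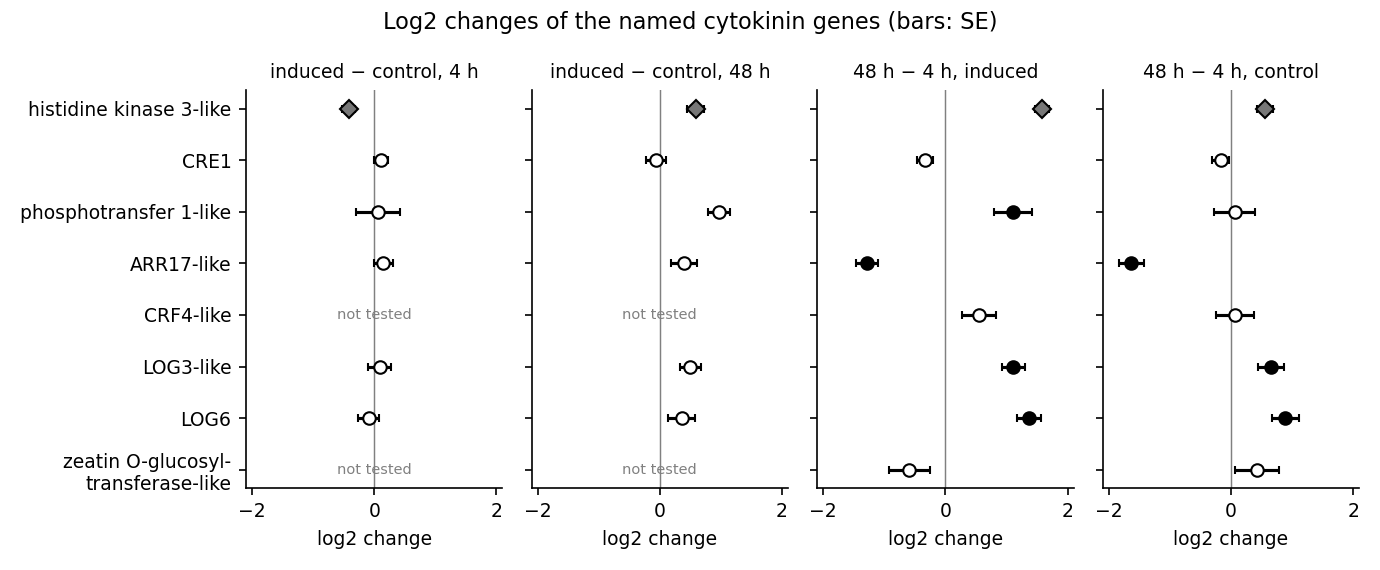
Log2 changes of the named cytokinin genes in the 2 induction comparisons (left panels) and the 2 comparisons over time (right panels), with SE as bars. Filled circles are genes called by limma at an adjusted p under 0.05, open circles are genes not called, and the grey diamond is the histidine kinase 3-like gene, which was not tested. The diamond lies at -0.42 and 0.59 upon induction at 4 h and 48 h, and at 1.58 and 0.55 over time in induced and control seedlings.

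Ethylene receptors are related to histidine kinases, and 4 of their genes carried a name (ethylene receptor 2-like, ETR1, ERS and NTHK1). RefSeq names the last 3, while ethylene receptor 2-like is named only because the authors' 48 h table of higher genes lists it. Its change over time in control seedlings and its difference between the times use the same 48 h controls. Their direction is therefore not independent evidence. None was called upon induction, 0 of 4 at 4 h and 0 of 2 that passed the filter at 48 h, with 0 and 1 at an unadjusted p under 0.05, while limma called 0.352% of all genes at 4 h and 0.0127% at 48 h. Over time 1 of 4 fell in induced and 1 of 4 in control seedlings, where 17.4% and 12.2% of all genes were called. ERS (LOC107794639) was the one that fell in induced seedlings, with 11.7 ± 3.97 CPM at 48 h and 19.8 ± 2.17 CPM at 4 h (SD, n = 3 each), a log2 change of -0.78 (SE 0.20, limma adjusted p = 0.0119), a call lost without induced replicate 3 of 4 h (-0.69). In control seedlings its log2 change was -0.66 (SE 0.22, adjusted p = 0.0676), and -0.56 with an adjusted p of 0.0314 when paired. Ethylene receptor 2-like (LOC107790374) fell in control seedlings, with a log2 change of -1.61 (SE 0.30, adjusted p = 0.000511), where it had 1 and 4 reads in the distinct libraries of 48 h. None of the 4 was called higher over time. None was called for a difference between the induction effects at 48 h and 4 h, where 0.16% of all genes were called, and 2 had an unadjusted p under 0.05. That difference was 1.23 for ethylene receptor 2-like (SE 0.40, limma adjusted p = 0.435) and -0.66 for ETR1 (LOC107784797; SE 0.24, adjusted p = 0.545).

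The genes whose pattern was most like that of the histidine kinase 3-like gene were ranked by Pearson correlation of log2(CPM + 0.5) over the 11 distinct libraries, among 41260 other genes. The 5 highest were LOC107762648 (r = 0.983), LOC107764008 (r = 0.976), LOC107820374 (r = 0.976), LOC107804352 (r = 0.975) and LOC107798623 (r = 0.974). Of these only LOC107804352 had a description, diacylglycerol kinase 1-like. The points of such a correlation are the same libraries with the same depths, so it is a description only.

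All 5 had the same order of group means as the histidine kinase 3-like gene. On the log2 scale the widest span was that of LOC107764008, with 26.0 ± 11.5 CPM in induced seedlings at 48 h (SD, n = 3) and 6.58 ± 1.91 CPM in controls at 48 h (SD, n = 2). At 4 h it had 0.809 ± 0.15 CPM in induced and 2.6 ± 1.25 CPM in control seedlings (SD, n = 3 each). LOC107804352 moved less, with 5.86 ± 0.371 CPM in induced and 3.89 ± 0.111 CPM in control seedlings at 48 h (SD, n = 3 and 2), and with 2.46 ± 0.243 CPM in induced and 2.96 ± 0.352 CPM in control seedlings at 4 h (SD, n = 3 each).

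**Figure D4:**
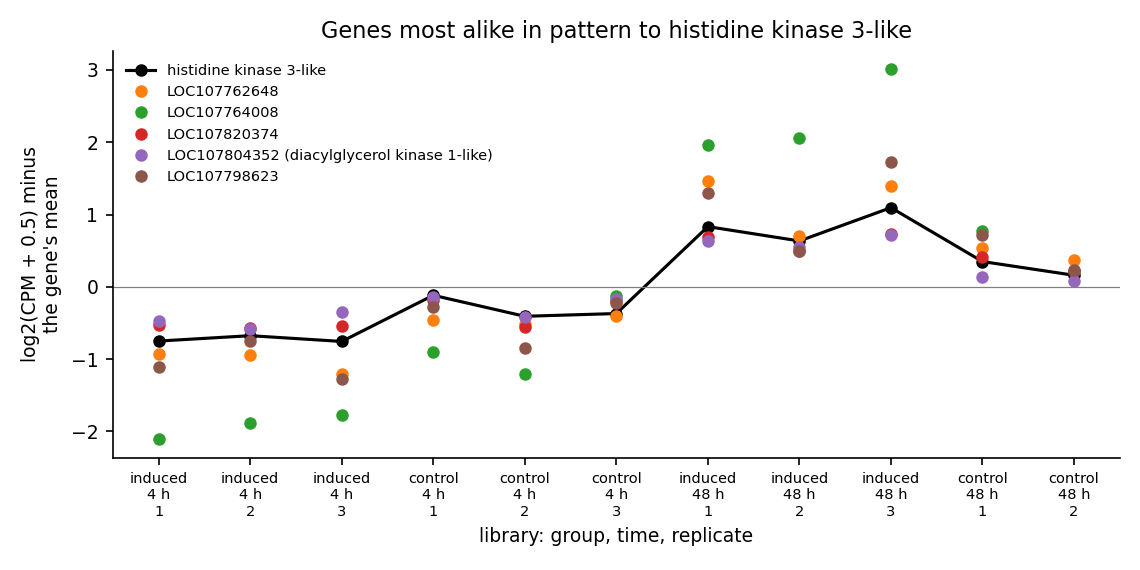
Log2(CPM + 0.5) of the histidine kinase 3-like gene (line) and of the 5 genes most alike in pattern (points), each minus the gene's own mean, in the 11 distinct libraries named on the horizontal axis. On average all 6 genes lie lowest in induced libraries at 4 h and highest in induced libraries at 48 h, with LOC107764008 spread the widest on this log2 scale.

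In the RefSeq gene table, which was used for order only, the gene directly before the histidine kinase 3-like gene is LOC107761409, listed as a pseudogene. Its log2 change upon induction was -0.15 at 4 h (limma adjusted p = 0.984) and 0.02 at 48 h (adjusted p = 0.997). Over time it was -0.01 in induced and -0.19 in control seedlings, neither of which was called. Tobacco carries close copies of most genes from both of its parent species, and how reads that match several copies were counted is not given in the sources used here, so the values of the histidine kinase 3-like gene may include reads of a close copy.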

How the data were processed

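Per the labels' protocols, polyadenylated RNA was sequenced as paired-end reads of 150 bp, with a minimum of 38 M per sample. The authors deposited a table of 44403 genes for 4 h and one of 42659 genes for 48 h, each holding a normalised signal per library whose scaling is not stated. The deposited ratio columns are linear folds of induced over control, and the deposited p-value columns hold unadjusted values. The submitters' processing notes name edgeR. The sources used here do not name an aligner, counting tool, genome build or annotation. The 12 per-library columns of the authors' shorter tables of higher genes were not used, only their names, folds and p-values.

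Each value divided by the value of 1 read gave a whole number for 100% of values within 0.01. Genes with a value above 5000 and over 20-fold the gene's median were left out (4 at 4 h and 14 at 48 h). At 4 h they held 43% and 40.1% of the reads in control replicates 1 and 2. In control replicate 3 and the induced libraries of 4 h they held at most 0.105%. At 48 h they held 2.7% in control replicate 1 and 69.3% in the repeated control. In induced replicates 1, 2 and 3 of 48 h they held 69.3%, 55.7% and 24.2%. Fits with these genes kept were not run. Whether control replicate 1 was sequenced less or processed otherwise is not known. Within each time point, limma (intensity trend, robust) was fitted on log2(value + 0.5) for genes that reached a value of 1 in 3 or more libraries, which understates the change of low genes. Changes over time were fitted jointly on log2(CPM + 0.5) of recovered reads after TMM scaling, for genes in both tables at 1 CPM in 3 libraries. P-values were adjusted by Benjamini-Hochberg over all genes and called at 0.05. The unpaired limma and edgeR fits were tested on simulated counts. Read recovery, the paired fits and DESeq2 were not part of that test. Versions were DESeq2 1.42.0, edgeR 4.0.16, limma 3.58.1 and R 4.3.3.

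Libraries with the same number in their descriptions deviated together at 4 h, at r = 0.16, 0.22 and 0.18 across 19703 genes. Other pairs gave -0.18 to 0.03. At 48 h, where only 2 pairs are distinct, r was 0.54 and 0.47 across 11369 genes. The 2 distinct controls there deviate by equal and opposite amounts, so these values are not separate evidence. They take the repeated library as number 3. As number 2 its partner would be induced replicate 1, at r = 0.11. In the joint fit the pairing also joins libraries of the same number across the times. Whether those deviate together was not checked. For tested genes, paired values are printed where they alter a call. For the histidine kinase 3-like gene, which was not tested, they are given as a description. Of 45034 genes, 39993 matched the RefSeq gene table of assembly ASM71507v2, which was used for names and order only. Only 938 had a name there, and 581 had a description in the authors' tables of higher genes. Cytokinin genes and ethylene receptors beyond these could not be recognised. The gene, the marker lists and the cytokinin list were chosen with earlier results of these data known. All cytokinin genes that a description or RefSeq names, all named ethylene receptors, the 5 genes most alike and the neighbouring genes were named. The gene directly after it was not analysed here.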

Additional observations from a re-analysis of the deposited data

Results flagged for a closer look

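The induction effect of the histidine kinase 3-like gene differed between the times by 1.03 on the log2 scale (48 h minus 4 h). It stands out because every induced library was below every control library at 4 h and above every distinct control library at 48 h. The difference was not tested for this gene, since it was chosen on these values, and 0.593% of the genes measured at both times showed the same pattern.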

How the results depend on the processing

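The log2 changes of the histidine kinase 3-like gene kept their direction under all alternatives run and moved by less than 1 SD between replicates, with ranges of -0.47 to -0.34 at 4 h, 0.47 to 0.70 at 48 h, 1.46 to 1.69 over time in induced and 0.46 to 0.65 in control seedlings, and 0.91 to 1.14 for the difference between the times. With the replicate block by library number the changes were -0.42 at 4 h and 0.60 at 48 h. Counts of genes called moved more. At 4 h, 131 genes were called (85 to 156 with 1 library left out), against 376 with the block by library number and 242 with a block by title number. At 48 h, 4 were called (3 to 61 with 1 library left out), against 11 with a pseudocount of 1, 2 by edgeR, 13 by DESeq2, 429 and 148 with the blocks by library and title number, and 646 and 1 when those blocks took the repeated library under its other number. That assignment, and the fit without both shallow controls, were chosen after seeing the data. Over time in control seedlings 5025 genes were called, against 2243 to 5264 with 1 library left out and 3346 without both shallow controls. The induction effect differed for 66 genes, against 132 with the block, 19 to 94 with 1 library left out and 41 without both shallow controls. Of the cytokinin genes, 0 were called at 48 h, against 0 to 1 with 1 library left out, 1 with either block and 2 with the repeated library under the other library number. Over time in control seedlings 3 were called, against 1 by edgeR, 1 to 3 with 1 library left out and 1 without both shallow controls. The causes were not tested.

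Among 916 recomputed values of the other named genes, 844 kept direction and call, 11 gained and 14 lost the call, and 47 changed sign, none of them called under either setting. The changed signs were as follows. With induction at 4 h, ethylene receptor 2-like gave 0.04 by edgeR and 0.02 by DESeq2. With induction at 48 h, ERS gave 0.04 by edgeR, 0.01 by DESeq2 and 0.12 with the repeated library under its other number in either block, and the title block gave 0.02 for CRE1 and -0.01 for LOC107761409. Over time, CRF4-like gave -0.01 with the block in control seedlings and LOC107761409 gave 0.02 by edgeR in induced seedlings. For the difference, NTHK1 gave 0.01 with a pseudocount of 0.1 and 0.00 with the block, and ERS gave 0.01 without both shallow controls. With 1 library left out, values that crossed 0 ranged at 4 h from -0.08 to 0.28 for LOG3-like, -0.13 to 0.04 for ethylene receptor 2-like, -0.09 to 0.17 for ERS, -0.02 to 0.26 for ARR17-like, -0.21 to 0.44 for the phosphotransfer gene and -0.24 to 0.09 for LOG6. At 48 h they ranged from -0.29 to 0.12 for ERS, -0.29 to 0.17 for CRE1 and -0.02 to 0.07 for LOC107761409. Over time in control seedlings they ranged from -0.19 to 0.32 for CRF4-like, -0.41 to 0.07 for CRE1 and -0.16 to 0.29 for the phosphotransfer gene, and in induced seedlings from -0.04 to 0.02 for LOC107761409. For the difference they ranged from -0.38 to 0.08 for ERS, -0.40 to 0.07 for CRE1 and -0.33 to 0.19 for NTHK1. The shallow controls limit the precision: the gene had 38 reads at 4 h and 71 at 48 h there.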
